A study of Mus musculus with 18 samples.

Results

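The genes described here are the 10 that carry out calcium cycling in the cardiomyocyte, Ryr2, Atp2a2, Pln, Sln, Casq2, Slc8a1, Cacna1c, Camk2d, Jph2 and Hrc. They were chosen by name for their role, and all 10 were found among the 51435 genes of the deposited tables. Left ventricular RNA was sequenced from 9 WT mice and 9 WWP2Mut/Mut littermates, which are homozygous on the C57BL/6J background for a small CRISPR/Cas9 deletion that shifts the reading frame early in Wwp2, a gene for an E3 ubiquitin ligase. The mutation is present in every cell of the animal and is not limited to the heart. Both genotypes received angiotensin II (AngII), a blood pressure hormone under which the heart enlarges, from a pump placed at 8 weeks of age that delivered 500 ng/kg/min for 28 days. No mice without AngII were analysed here, so the levels given are those of a heart under AngII.

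With each heartbeat, the membrane depolarisation opens L-type calcium channels, and the calcium that enters makes ryanodine receptors release much more calcium from the sarcoplasmic reticulum, the calcium store of the muscle cell. The heart relaxes when the calcium pump of the store takes calcium back up and the sodium-calcium exchanger carries the remainder out of the cell. Small membrane proteins, a calcium buffer inside the store, a kinase and a tether between the membranes tune these fluxes, and their balance is known to shift in the hypertrophied and failing heart.

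The regulators of the pump in the heart include 2 very small proteins, phospholamban (Pln) and sarcolipin (Sln), whose whole coding sequences are printed here because the most and the least abundant of the 10 transcripts were theirs. Both sequences are unspliced and come from GENCODE M21 on GRCm38, with the start and stop codons in capitals. The Sln sequence of 96 bases lies at chr9:53853473-53853568 on the plus strand and encodes 31 codons before the stop. The Pln sequence of 159 bases lies at chr10:53343864-53344022 on the plus strand and encodes 52 codons.
Sln: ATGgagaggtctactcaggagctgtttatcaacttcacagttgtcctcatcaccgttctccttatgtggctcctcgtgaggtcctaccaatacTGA
Pln: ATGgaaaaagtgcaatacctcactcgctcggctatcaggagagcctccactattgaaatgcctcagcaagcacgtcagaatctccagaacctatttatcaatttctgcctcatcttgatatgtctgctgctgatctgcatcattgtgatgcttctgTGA

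The values come from 24566994 to 37451087 counts per mouse. Wwp2 transcripts, the check of the genotype, were at 5.09 ± 0.60 TPM (SD, n = 9) in WT and 1.72 ± 0.528 TPM (n = 9) in WWP2Mut/Mut mice, and all 9 WT mice lay above every mutant. TPM, a scaled transcript number, is a level per transcript length and allows genes to be compared, whereas CPM, the library-scaled count after TMM normalization, follows 1 gene across mice. The ventricular markers were strongly expressed, and 7 of 7 cardiomyocyte markers were detected with a summed level of 44555 to 55835 TPM in WT and 41754 to 56100 TPM in WWP2Mut/Mut mice. None of 11 marker lists differed in its sum after adjustment over the lists (exact permutation test, two-sided, adjusted p of at least 0.231). Stress genes summed to 1640 to 4095 TPM in WT and 926 to 3061 TPM in mutants (unadjusted exact p = 0.0364), and 0 of 4 had an unadjusted edgeR p under 0.05. Liver genes summed to 1.44 to 263 TPM in WT and 2.74 to 48.6 TPM in mutants (unadjusted exact p = 0.0580). Of these, 5 of 5 had an unadjusted edgeR p under 0.05, beside 3.66% of all genes tested, and 0 of 5 passed the adjustment. The RNA concentration was also lower in WT, at 110 ± 51.5 ng/µl against 175 ± 73.6 ng/µl (n = 9 each, exact permutation test, p = 0.0422), with WT mouse 43-3 recorded at 1.68 ng/µl, and without that mouse the exact p was 0.0872. The absorbance ratio that is read for protein also differed (exact permutation test, p = 0.00777). Without the WT mouse whose recorded ratio stands far from all others it was 2.09 to 2.17 in 8 WT and 2.08 to 2.13 in 9 WWP2Mut/Mut mice (exact p = 0.0119). RNA concentration was a covariate of the genotype fit, and the marker sums and the absorbance ratio did not enter it.

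Calcium cycling transcripts covered a wide range of levels, and 6 of the 9 neighbouring pairs in their order held in at least 17 of 18 mice. Pln was the most abundant, above Atp2a2 in 17 of 18 mice, and Atp2a2 exceeded Casq2 in 18 of 18. Casq2 and Hrc, both of which bind calcium inside the store, could not be put in order over the whole series, since Casq2 was the higher in 11 of 18 mice. Hrc exceeded Jph2, Jph2 exceeded Ryr2 and Ryr2 exceeded Camk2d in all 18 mice. The next neighbours, Camk2d over Cacna1c and Cacna1c over Slc8a1, each held in 11 of 18 mice over the whole series. Both orders went with the gene body coverage fraction described further on, since Camk2d was above Cacna1c in 8 of the 8 mice with the lowest fraction and in 3 of the other 10, and Cacna1c was above Slc8a1 in 1 of the 8 and in 10 of the 10. Likewise Casq2 was above Hrc in 7 of the 8 and in 4 of the other 10. Slc8a1 exceeded Sln in 17 of 18 mice, and Sln was the lowest of the 10 in 16.

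**Figure D1:**
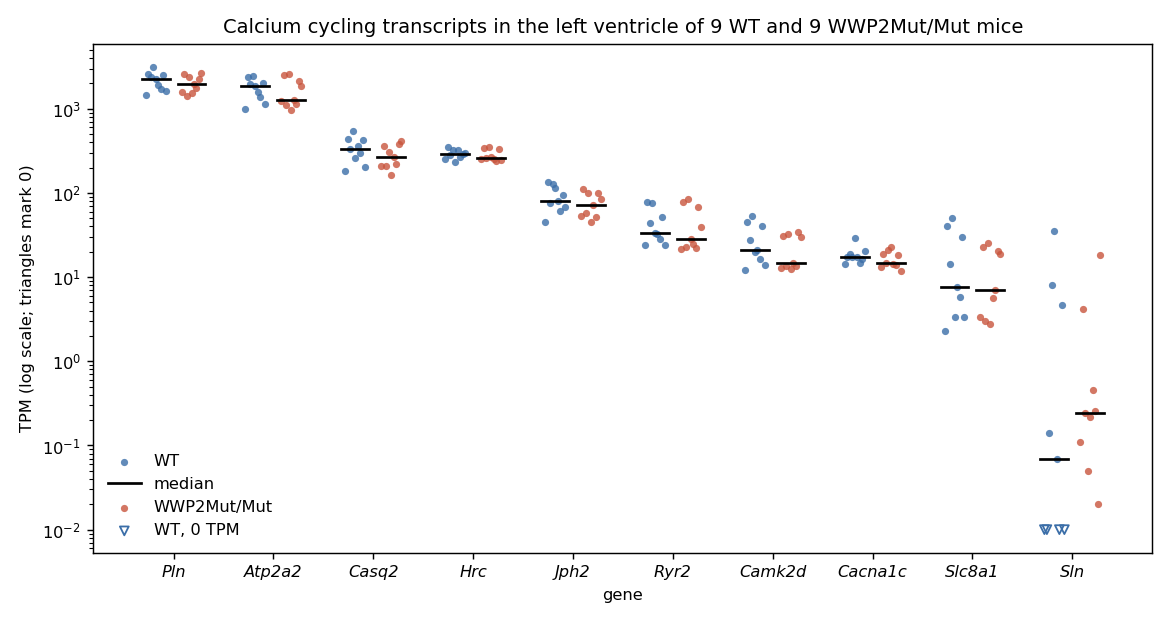
Level in TPM (log axis) of the 10 calcium cycling transcripts in each of 9 WT (blue) and 9 WWP2Mut/Mut (red) mice, with the median of each genotype as a black bar and mice at 0 TPM as open triangles. The genotypes overlap for every gene, and Slc8a1 and Sln spread far more than Hrc.

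The first comparison asks whether the calcium cycling transcripts differed between WT and WWP2Mut/Mut hearts under AngII. None of the 10 did by the test used. In edgeR's quasi-likelihood test across 24804 genes with Benjamini-Hochberg adjustment, 0 of the 10 had an adjusted p under 0.05, where 0.00403% of all tested genes did, the single call being Wwp2. That call was lost without lane 2 (adjusted p = 0.461), without lane 4 (0.188) and without the 5 mice above 10 TPM of the atrial light chain Myl7 (0.205), with Wwp2 log2 fold changes of -1.38 to -1.26. At an unadjusted p under 0.05 there were also 0 of 10, with unadjusted p between 0.361 and 0.977, against 3.66% of all genes tested. DESeq2 and limma called none of the 10 either. In limma on log2(TPM + 1) several values were farther below 0 than the edgeR values given below, at -0.38 for Camk2d, -0.31 for Jph2, -0.30 for Casq2, -0.24 for Atp2a2, -0.22 for Ryr2 and -0.17 for Cacna1c (adjusted p of at least 0.811), where the median of all genes was -0.03. The log2 fold change of WWP2Mut/Mut over WT was negative for 7 of 10, with a median of -0.05, and the median over all genes tested was -0.01.

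Ryr2 encodes the ryanodine receptor through which the store releases calcium. Its level ran from 23.9 through a median of 32.96 to 78.7 TPM in WT and from 21.6 through 28.5 to 83.6 TPM in WWP2Mut/Mut mice, on chr13:11553102-12106945 of the minus strand. The ranges overlapped almost entirely, and the log2 fold change was -0.03 (SE 0.252, adjusted p = 1). Casq2, the calsequestrin that buffers calcium next to the receptor, lay between 181 and 537 TPM in WT (median 333) and between 162 and 411 TPM in the mutants (median 270). Of the 9 WT mice, 3 lay above every mutant, but the log2 fold change of -0.13 (SE 0.172) was smaller than its error. Hrc, a histidine-rich calcium binding protein of the store, was the steadiest of the genes, with 231 to 352 TPM in WT (median 293) and 240 to 352 TPM in the mutants (median 259). Its log2 fold change was 0.09 (SE 0.108), positive on counts although the mean TPM was lower in the mutants, and the 95% interval ran from -0.12 to 0.30.

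Atp2a2 encodes SERCA2, the pump that refills the store. It was measured at 1002 to 2470 TPM in WT, with a median of 1841, and at 972 to 2555 TPM in WWP2Mut/Mut mice, with a median of 1257. The mutant medians were lower while the 2 highest mice were both mutants, and the log2 fold change was -0.05 (SE 0.195), with a 95% interval of -0.43 to 0.34. Pln, the inhibitor of this pump, ran from 1455 to 3120 TPM in WT (median 2277) and from 1426 to 2623 TPM in mutants (median 1955). The log2 fold change of Pln was 0.005 (SE 0.164) with a 95% interval of -0.32 to 0.33. The balance between inhibitor and pump is often read as the ratio of their transcripts, and the ratio of Pln to Atp2a2 TPM had a median of 1.24 in WT (1.07 to 1.45) and 1.29 in WWP2Mut/Mut mice (0.942 to 1.57). The mean log2 ratio differed by 0.02 (SE 0.103, exact permutation test, two-sided, p = 0.883).

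Slc8a1 encodes the sodium-calcium exchanger NCX1 and varied more than any other member except Sln. Levels in WT were 2.26 to 50.8 TPM with a median of 7.66, and in WWP2Mut/Mut 2.77 to 25.1 TPM with a median of 7.01. In both genotypes, 4 of 9 mice were above 14 TPM and 5 were below 8 TPM, so each genotype held both high and low mice. The log2 fold change was -0.34 with an SE of 0.710, and its 95% interval, -1.73 to 1.05, is wide. Within the sequencing lanes the difference in mean log2 CPM took both signs, at 1.06 in lane 1, 0.65 in lane 2, -1.91 in lane 3 and -0.21 in lane 4, with 2 or 3 mice of a genotype in each. Cacna1c, the pore of the L-type calcium channel, was at 14.5 to 29.3 TPM in WT (median 17.4) and at 11.9 to 22.8 TPM in mutants (median 14.9), with a log2 fold change of -0.05 (SE 0.194). The value depended on the lanes, at -0.35 (SE 0.166, edgeR's quasi-likelihood test, adjusted p = 0.740) without lane 1 and 0.21 (SE 0.223) without lane 2. A single WT mouse stood above every mutant.

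Camk2d encodes the calcium- and calmodulin-dependent kinase that phosphorylates the receptor and phospholamban. It was found at 12.1 to 52.9 TPM in WT (median 20.7) and at 12.5 to 34.3 TPM in WWP2Mut/Mut mice (median 14.9), with 3 WT mice above every mutant. Its log2 fold change was -0.13 (SE 0.143, unadjusted p = 0.361), the smallest p of the 10. Jph2, the junctophilin that holds the store close to the surface membrane, was at 45.4 to 135 TPM in WT (median 81.0) and at 44.9 to 110 TPM in mutants (median 72.2). The log2 fold change was -0.13 (SE 0.175), and again 3 WT mice exceeded every mutant. By the two-sided exact permutation test on TPM over 48620 divisions of the mice, p lay between 0.256 (Casq2) and 0.989 (Ryr2) for the 10 genes.

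**Figure D2:**
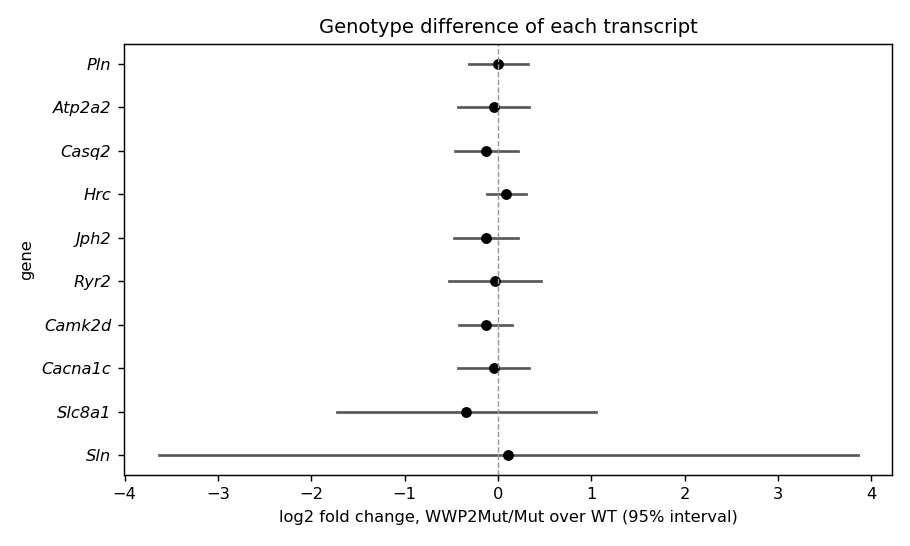
Log2 fold change of WWP2Mut/Mut over WT (horizontal axis) for each gene, as a point with its 95% interval (1.96 standard errors on each side) from the edgeR fit. The intervals of all 10 genes span 0, and those of Slc8a1 and Sln are several times wider than the others.

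Ratios within a library do not depend on its depth, and 9 such ratios of TPM were compared between genotypes. None differed, with Benjamini-Hochberg adjusted p between 0.765 and 0.883 by exact permutation tests over the 9 mice of each genotype. The ratio of Camk2d to Ryr2 was 0.504 to 0.795 in WT (median 0.610) and 0.389 to 0.765 in WWP2Mut/Mut mice (median 0.596), a difference in mean log2 ratio of -0.22 (SE 0.127, unadjusted exact p = 0.102). Without WWP2Mut/Mut mouse 8-2 this difference was -0.29 (unadjusted exact p = 0.0252), and no ratio passed the adjustment over 9 ratios in any alternative. Hrc to Casq2 had medians of 0.880 and 1.08 and differed by 0.20 (SE 0.191, unadjusted exact p = 0.302). Casq2 to Ryr2, the buffer to the release channel, had medians of 7.97 and 9.08, with a range over all mice of 3.67 to 11.1. Its mean log2 ratio went the other way, with a difference of -0.165 (SE 0.219, unadjusted exact p = 0.462).

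The spread between mice was large for several of these genes, and it followed a property of the libraries, the deposited gene body coverage fraction. The sample table gives this fraction under the label genebody_bottomhalf, without defining it. It ran from 0.0288 to 0.05398 over the mice, and the genotypes did not differ in it by the test used (0.0387 ± 0.00861 in WT and 0.0401 ± 0.00825 in WWP2Mut/Mut, n = 9 each, exact permutation test, p = 0.720). For 7 of the 10 genes the log2 CPM fell as the fraction rose, with a Pearson r under -0.7, where 23.1% of the 11336 genes with a mean of at least 1 TPM did. A further 15.4% of all genes had an r above 0.7, and none of the 10 did. Many genes of these libraries thus shared the relation, in both directions.

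Slc8a1 showed it most strongly, with r = -0.926 and Spearman's rho = -0.899 over 18 mice (permutation test, p = 1e-05, the smallest that 100000 resamples can give, and 0.00025 after Benjamini-Hochberg adjustment over 50 relations). In the 8 mice with the lowest fraction, 4 of each genotype, Slc8a1 was at 54.5 to 153 CPM with a median of 88.4. The other 10 mice, 5 of each genotype, were at 11.1 to 30.2 CPM with a median of 15.02, so the 2 sets, chosen after the values were seen, did not overlap. Of the 8 mice 4, and of the 10 mice 1, had more than 10 TPM of the atrial light chain Myl7, a difference that was not tested. Median Myl7 was 24.97 TPM in the 8 and 0.925 TPM in the 10. The atrial markers took both directions, since over the 18 mice r with the fraction was -0.872 for Kcnj3 and 0.259 for Nppa. It was -0.281 for Myl7, -0.286 for Myl4, -0.295 for Dkk3 and -0.333 for Bmp10. The 6 atrial markers, all detected, summed to 328 to 1175 TPM in the 8 and to 601 to 1057 TPM in the 10, and Bmp10 was at most at 0.03 TPM. In the 13 mice at or below 10 TPM of Myl7, r for Slc8a1 was -0.954. Within each genotype r was -0.906 (WT) and -0.966 (WWP2Mut/Mut). Without the 2 mice farthest from the median fraction it was -0.926.

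Atp2a2 (r = -0.904), Pln (r = -0.861), Camk2d (r = -0.837), Casq2 (r = -0.835), Jph2 (r = -0.813) and Ryr2 (r = -0.760) had the same sign, each with an adjusted permutation p of at most 0.0021. Spearman's rho for these 6 lay between -0.893 and -0.763, and r without the 2 mice farthest from the median fraction between -0.898 and -0.729. In the 13 mice with at most 10 TPM of Myl7, r for the 6 was -0.905 to -0.766. Atp2a2 was at 9974 to 13630 CPM in the 8 mice of low fraction and at 6125 to 8442 CPM in the other 10, again without overlap. Camk2d was at 104 to 137 CPM in the 8 and at 78.6 to 94.6 CPM in the 10. The share of all genes that separate the same sets, which were chosen after the values were seen, was not counted. Inside the sets the genes differed. Among the 8 mice r was -0.82 for Camk2d, -0.43 for Ryr2 and -0.14 for Atp2a2, and among the 10 mice it was -0.06 for Camk2d, 0.12 for Ryr2 and -0.75 for Atp2a2.

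Cacna1c (r = -0.290), Sln (r = -0.336) and Hrc (r = 0.209) did not pass the test. Without the 2 mice farthest from the median fraction, r was -0.590 for Cacna1c, -0.266 for Sln and 0.064 for Hrc. For Hrc the scale decided the answer, since on log2(TPM + 1) its r was -0.653. Hrc TPM had a median of 330 in the 8 mice of low fraction and 257 in the other 10, while the CPM medians were 913 and 954. The cardiomyocyte markers took both directions with the fraction, from r = -0.779 for Actc1, cardiac actin, to r = 0.910 for Tnni3, cardiac troponin I, so the calcium cycling genes did not move with all transcripts of their cell type. RNA concentration, both absorbance ratios and library total gave no relation with any of the 10 genes that passed the adjustment over 50 relations.

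**Figure D3:**
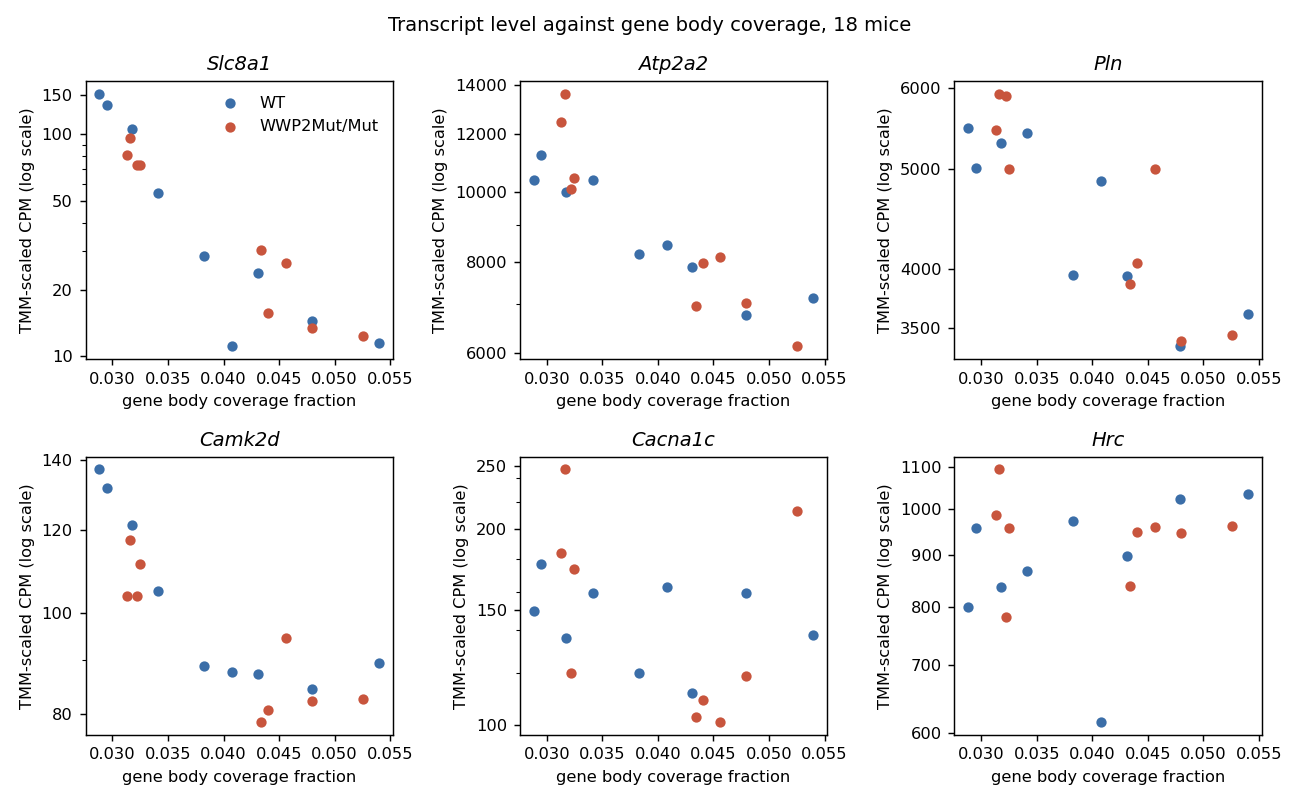
TMM-scaled CPM (log axis, a separate scale in each panel) of 6 transcripts against the gene body coverage fraction in 9 WT (blue) and 9 WWP2Mut/Mut (red) mice. Slc8a1, Atp2a2, Pln and Camk2d are highest in mice of both genotypes with a low fraction, and Cacna1c and Hrc have no clear slope over all mice.

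The transcripts also rose and fell together from mouse to mouse. Sln is left out of this account because its levels fell into separate clusters. Its pair with Hrc, which passed the same adjustment and was negative, is given with Sln further on. Of the other 36 pairs, 21 were correlated over the 18 mice with a permutation p under 0.05 after adjustment over all 45 pairs, all positively, and the median r was 0.72. A Pearson r above 0.8 was reached by 10 pairs, and by 3.41% of all pairs of genes with a mean of at least 1 TPM. The closest pairs were Slc8a1 with Camk2d (r = 0.911, rho = 0.789), Atp2a2 with Pln (r = 0.899, rho = 0.889) and Ryr2 with Atp2a2 (r = 0.872, rho = 0.868), each with an adjusted permutation p of 0.00015. Without the 2 mice farthest from the median of the first gene, their r was 0.877, 0.898 and 0.785. Hrc stood outside, with r between -0.27 (with Pln) and 0.21 (with Cacna1c).

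After the part that is linear in gene body coverage was removed from each gene, the median r over the 36 pairs fell to 0.26, and none of the 10 pairs stayed above 0.8. A single pair, Ryr2 with Cacna1c (r = 0.82), was above 0.8 after the removal. These are the release channel and the entry channel that triggers it, and as measured their r was 0.73 (rho = 0.70, adjusted permutation p = 0.0016). It was 0.40 within WT, 0.85 within WWP2Mut/Mut mice and 0.29 on log2(TPM + 1). The pump and its inhibitor, Atp2a2 and Pln, dropped from 0.90 to 0.55, and Slc8a1 with Camk2d from 0.91 to 0.66. Casq2 and Cacna1c were at -0.11 as measured and at -0.68 after the removal.

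**Figure D4:**
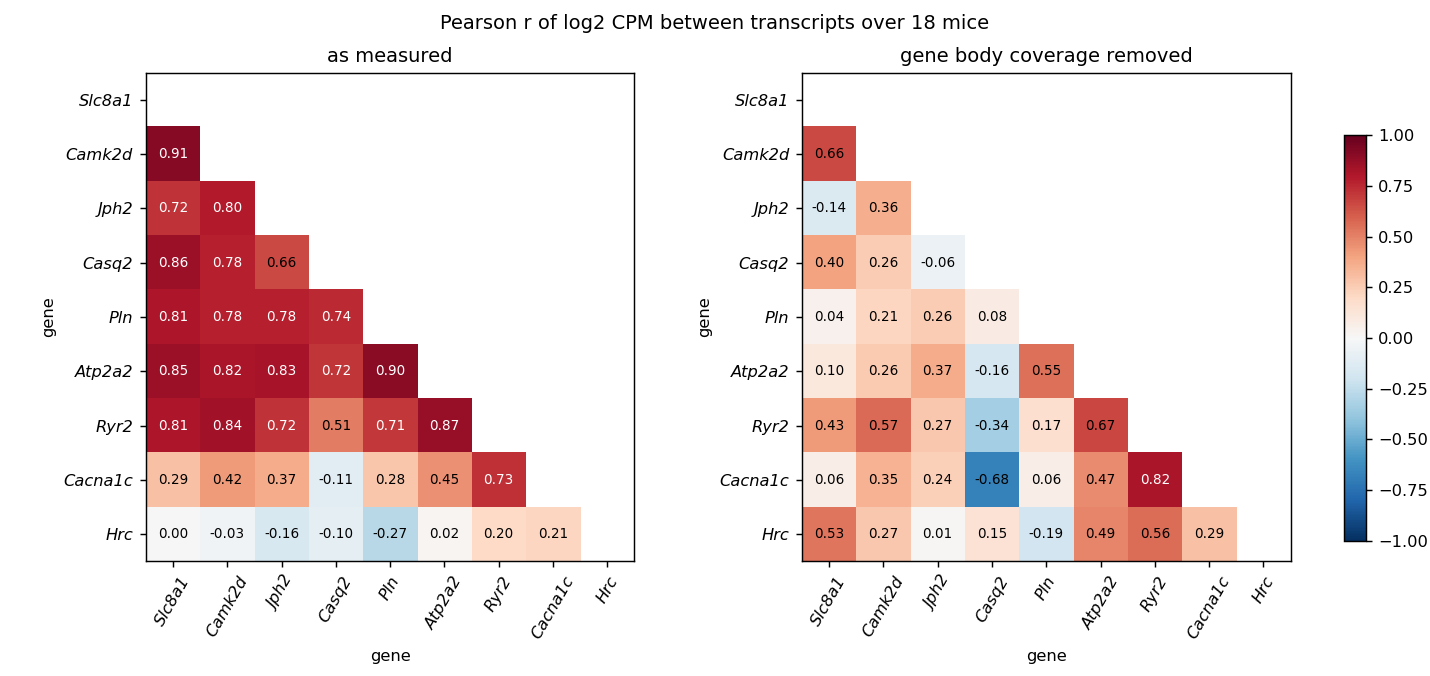
Pearson r of log2 CPM over 18 mice for each pair of 9 calcium cycling transcripts, as measured (left) and after the part linear in gene body coverage was removed (right), on a colour scale from -1 (blue) to 1 (red). The block of high r among Slc8a1, Camk2d, Jph2, Casq2, Pln, Atp2a2 and Ryr2 on the left is paler on the right, where Ryr2 with Cacna1c is the highest at 0.82.

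Genes among the 3 most like each member over the 18 mice were named by the r of log2 CPM, given as a description with no test. Slc8a1 was closest to Pdpr (r = 0.990), Pm20d2 (r = 0.987) and Nt5c1a (r = 0.986). Atp2a2 was closest to Pdk1 (r = 0.984), Nbr1 (r = 0.975) and Rmnd5a (r = 0.972). Ryr2 ran with Ppargc1a (r = 0.968) and Usp24, and Pln with Nipsnap2 (r = 0.975) and Ndufs1. Casq2 ran with Fuca2 (r = 0.960), Hrasls and Bag2, Camk2d with 1110002L01Rik (r = 0.965), Samd4 and Lnpep, and Jph2 with Pskh1 (r = 0.971), Rhot2 and Stk40. Cacna1c was closest to Kat6b (r = 0.922), Frs2 and Tnrc6c, and Hrc, at lower r, to Cacfd1 (r = 0.863), Las1l and Cog7.

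TPM spread more than CPM for most of these genes, and for some the transcript length that enters TPM moved as well. The ratio of expected count to TPM, scaled in each library by 298 reference genes with 1 annotated transcript, gives a relative measure of the mean transcript length to which the reads of a gene were assigned. It is not exact, since for Jph2 it reached 4253 bases where the longest annotated transcript has 4211. For Camk2d, which has 28 annotated transcripts of 206 to 5524 bases, this length ran from 2454 to 4267 bases and rose with the gene body coverage fraction (r = 0.963, rho = 0.913 over 18 mice, permutation p = 1e-05). Camk2d differed 4.39-fold between the highest and lowest mouse in TPM and 1.75-fold in CPM. Ryr2 moved the same way, from 10863 to 15139 bases (r = 0.753). Cacna1c went in the opposite direction, from 4418 to 8866 bases (r = -0.803), as did Pln, from 1395 to 1886 bases (r = -0.771).

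The assigned length of the remaining genes was nearly constant. For Slc8a1 it was 2881 to 2886 bases, although 6 transcripts of 2017 to 18464 bases are annotated, while its level differed 22.5-fold between the highest and lowest mouse in TPM and 13.8-fold in CPM. The length of Atp2a2, Casq2, Jph2 and Hrc changed by at most 1.03-fold. No gene differed in assigned length between genotypes by the exact permutation test (p between 0.361 and 1.00).

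Promoter sequence was available for 8 of the 10 genes in the RefSeq table for GRCm38.p6, with no entry for Atp2a2 and Sln. The 250 bases before the start are printed for 3 genes that moved with gene body coverage and hold a searched word. The words were CTAAAAATA, CTATAAATA and CTATTTATA for MEF2 and AGATAA and TGATAA for GATA factors, on both strands, with matches in capitals. A MEF2 word was present in 1.11% of 32851 promoters and, among the 8 genes, in that of Casq2. A GATA word was present in 16.6% and, among the 8, in those of Pln and Slc8a1, each with 2. The words of the 2 families did not overlap in these promoters. The promoters lie at chr3:102086165-102086414 (plus strand, Casq2), chr10:53337436-53337685 (plus strand, Pln) and chr17:81738388-81738637 (minus strand, Slc8a1).
Casq2: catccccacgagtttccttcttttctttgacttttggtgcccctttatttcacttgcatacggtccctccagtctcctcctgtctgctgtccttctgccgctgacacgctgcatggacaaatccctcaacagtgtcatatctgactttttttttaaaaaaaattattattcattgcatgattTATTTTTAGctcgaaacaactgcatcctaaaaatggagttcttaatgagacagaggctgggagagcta
Pln: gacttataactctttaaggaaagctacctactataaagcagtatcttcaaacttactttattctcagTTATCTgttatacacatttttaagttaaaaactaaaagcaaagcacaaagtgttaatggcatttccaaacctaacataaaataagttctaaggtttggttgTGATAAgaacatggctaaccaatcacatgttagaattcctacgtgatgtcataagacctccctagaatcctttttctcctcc
Slc8a1: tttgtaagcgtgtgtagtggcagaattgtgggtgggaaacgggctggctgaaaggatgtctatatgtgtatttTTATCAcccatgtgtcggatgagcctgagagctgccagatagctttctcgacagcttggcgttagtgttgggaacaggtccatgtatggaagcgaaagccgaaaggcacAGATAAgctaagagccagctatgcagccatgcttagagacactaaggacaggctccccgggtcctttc

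Sarcolipin, which inhibits the pump mainly in atrial muscle, was at the bottom of the range in most of these ventricles and high in a few. In 5 mice Sln was at 8.11, 35.1 and 4.61 TPM (WT) and at 4.23 and 18.3 TPM (WWP2Mut/Mut), from 192 to 1661 counts. In the other 13 it was between 0 and 0.46 TPM, with 28 counts at most, and 4 WT mice had no count at all, which allows up to 3 counts in each by counting error. No mouse lay between 0.46 and 4.23 TPM, the gap that parts the 2 sets, and both genotypes were in both.

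The same 5 mice had high levels of atrial transcripts. Myl7, the atrial myosin regulatory light chain, was at 48.7 to 338 TPM in the 5 and at 0.09 to 7.14 TPM in the 13, and Myl4, the atrial essential light chain, was at 40.2 to 255 TPM and at 1.45 to 9.53 TPM. Over the 18 mice Myl7, Myl4 and Mybphl were the 3 genes most like Sln (r = 0.975, 0.953 and 0.943, rho = 0.932, 0.820 and 0.742). Among the 13 mice alone r was 0.834 for Myl7, 0.617 for Myl4 and 0.484 for Mybphl. The ratio of Sln to Myl7 TPM in the 5 was 0.0518 to 0.104. Not all atrial markers followed, since Nppa was at 317 to 1047 TPM without separating the sets, Kcnj3 was at 3.85 to 10.4 TPM, and Bmp10 was at 0 in 13 mice and at most at 0.03 TPM. In RNA from whole tissue, fewer cells of a type and less RNA per cell cannot be told apart.

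Sln had no genotype difference by the edgeR test, with a log2 fold change of 0.11 and an SE of 1.91 (adjusted p = 1). Its adjusted p was at least 0.889 in each alternative fit, but the size depended on the tool and on single libraries. DESeq2 gave 2.27 (SE 3.36) on the same 18 mice. With 1 mouse left out the value ran from -1.12 (without WWP2Mut/Mut 8-2) through 1.96 (without WWP2Mut/Mut 53-1) to its highest without WT 45-1, the mouse with the highest Sln. There the log2 fold change was 3.80 (SE 1.13, unadjusted p = 0.00361, adjusted p = 1), and without the 5 mice above 10 TPM of Myl7 it was 3.07 (SE 0.792, unadjusted p = 0.00166, adjusted p = 1). The latter compares levels of at most 0.46 TPM, where 4 of 6 WT mice had no count, and the fitted size depends on the prior count. Hrc was lowest, at 615 CPM, in the mouse with the highest Sln, and at 615 to 987 CPM in the 5 mice against 838 to 1095 CPM in the 13. Over the 18 mice Sln and Hrc were negatively correlated (r = -0.756, rho = -0.640, permutation p = 0.00074 after adjustment over 45 pairs). Their r was -0.893 within WT, -0.603 within WWP2Mut/Mut mice and -0.744 with gene body coverage removed. Among the 13 mice Sln and Hrc were not correlated by the test (r = -0.384, permutation p = 0.198).

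**Figure D5:**
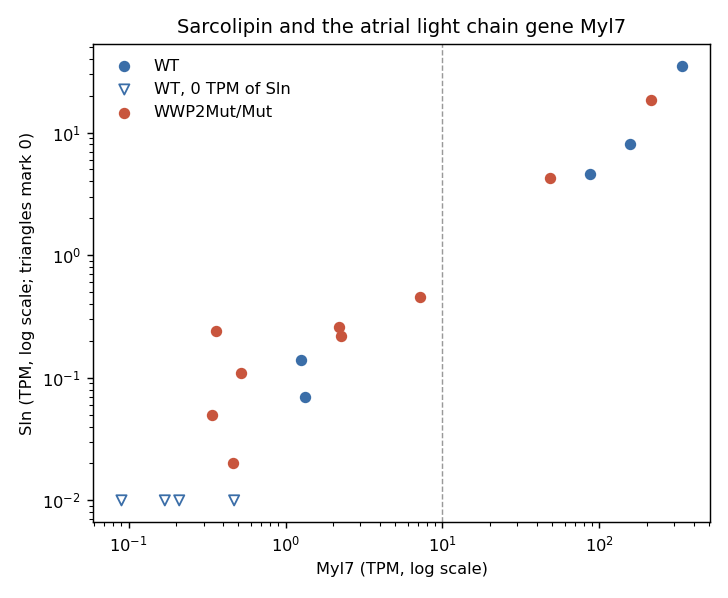
Sln against Myl7, both in TPM on log axes, in 9 WT (blue) and 9 WWP2Mut/Mut (red) mice, with the 4 mice at 0 TPM of Sln as open triangles and a dashed line at 10 TPM of Myl7. The 5 mice to the right of the line, 3 WT and 2 WWP2Mut/Mut, have 4.23 to 35.1 TPM of Sln and the 13 to its left at most 0.46.

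A list of 62 other calcium handling genes was examined beside the 10, of which 61 were tested and Strit1 was not matched. None had an adjusted p under 0.05 by edgeR, DESeq2 or limma, with a median log2 fold change of 0.005. At an unadjusted p under 0.05, 0 were lower in WWP2Mut/Mut mice (2.57% of all genes tested) and 1 was higher (1.09%). This was Mrln, a small regulator of the calcium pump known from skeletal muscle, with a log2 fold change of 0.92 (SE 0.272, unadjusted p = 0.00328, adjusted p = 0.865). With no covariates it was 0.60 (unadjusted p = 0.0338) and in limma on log2(TPM + 1) 0.53 (unadjusted p = 0.00181), and over all alternatives to this fit its adjusted p was at least 0.369. By role, none of the 13 tested genes of the release complex, 7 of calcium entry, 4 of extrusion, 15 kinases, phosphatases and cAMP genes, 4 of dyad structure, 5 of IP3 and store-operated entry or 7 of mitochondrial calcium uptake passed the unadjusted threshold.

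The shares of these genes that followed gene body coverage were near those of all genes. Of the 55 with a mean of at least 1 TPM, 16 (29.1%) had an r under -0.7, and 6 (10.9%) an r above 0.7, beside the 23.1% and 15.4% of all genes. Jph1, the skeletal muscle paralogue of Jph2, had r = -0.943, and Atp2b1, a calcium pump of the surface membrane, had r = -0.916. Akap6, the anchor of protein kinase A at the nuclear envelope and the release channel, was at r = -0.914. In the opposite direction were Ppp1r1a, an inhibitor of protein phosphatase 1 (r = 0.848), Smdt1, a subunit of the mitochondrial calcium uniporter (r = 0.840), and S100a1, a calcium sensor of the release channel (r = 0.776). The kinase, phosphatase and cAMP genes held 9 of the 16, out of 15 genes, and the 7 mitochondrial genes held none.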

How the data were processed

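RNA-seq of poly(A)-selected left ventricular RNA from 9 WT and 9 WWP2Mut/Mut mice, grouped by genotype label, was used. Replicates are separate mice. The authors aligned reads to mouse genome m38 with STAR 2.5.2b (Ensembl 89) and quantified genes with RSEM 1.2.31. They deposited expected counts (5.11% of values not whole) and TPM for each gene and mouse. The deposited TPM summed to 671770 to 826381 per mouse and were used as they stand. The deposited sample table gives a gene body coverage fraction, absorbance ratios, RNA concentration and lane. The library kit was directional, and the strand setting of the counting is not given in the sources used here. The exons of Pln overlap those of Cep85l (1.36 TPM) on the opposite strand. In the sample table, 1 absorbance ratio of a WT mouse reads 214, and its relations were repeated without that mouse.

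Expected counts, rounded to whole numbers, were tested with edgeR 4.0.16 (TMM, quasi-likelihood) in R 4.3.3 over 24804 genes whose counts summed to more than 1, adjusting for lane and RNA concentration (centred), with Benjamini-Hochberg adjustment at 0.05. The concentration of WT mouse 43-3 reads 1.68 ng/µl, where the others read 88.6 to 320.9, and may be a recording error. It entered the model as given, and the fits without that mouse or with lane alone are among the alternatives. Intervals are 1.96 standard errors. Log2 CPM used a prior count of 2. DESeq2 1.42.0, limma 3.58.1 on log2(TPM + 1), other scalings, filters and covariates, and each mouse or lane left out were alternatives. Values of single genes and ratios (0.01 TPM added to both terms) were compared by exact permutation, and correlations by 100000 permutations in Python 3.11.15 (numpy 2.4.6, pandas 2.3.3, scipy 1.17.1). Reference genes for the assigned length had 1 transcript of at least 2000 bases and at least 200 counts. Coordinates are GENCODE M21 on GRCm38, and promoters are RefSeq on GRCm38.p6. Library totals, 24566994 to 37451087 counts, give the 10 genes 265 to 438706 counts per mouse except Sln (0 to 1661), and limits from counts cover counting error only. The fits were tested on simulated data. The genes named are the 10 members, Wwp2, the 3 genes with the highest r to each (some are not reported here), and those of the 62 listed calcium genes with the smallest p under 0.05 (up to 5 per direction). Genes named for their r with gene body coverage were chosen after their values were seen. The members and lists were chosen with earlier results of these data known.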

Additional observations from a re-analysis of the deposited data

Results flagged for a closer look

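Of 34 sets of 9 mice examined (10 transcripts and 7 ratios in each genotype), 3 held a mouse whose gap to the next, divided by the range, was above Dixon's critical value for 9 samples. Chance marks about 1 in 20 such sets. Sln was at 35.1 TPM in WT mouse 45-1, with the next WT mouse at 8.11 TPM, and at 18.3 TPM in WWP2Mut/Mut mouse 8-2, with the next at 4.23 TPM. Both are among the 5 mice with Myl7 above 10 TPM. Cacna1c was at 29.3 TPM in WT mouse 45-1, with the next WT mouse at 20.3 TPM. In CPM this mouse was at 163, inside the WT range of 112 to 177.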

How the results depend on the processing

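In all 35 alternatives to the edgeR fit 0 of the 10 genes had an adjusted p under 0.05. At an unadjusted p under 0.05 the count was 0 to 1 with 1 mouse left out, and 1 without lane 2 and 1 without the mice above 10 TPM of Myl7, Sln in each case. Fold changes near 0 changed sign in log2 units, none of them called. With no covariates Ryr2 was at 0.088, Atp2a2 at 0.043, Sln at -0.76 and Cacna1c at 0.060. With lane alone Ryr2 was at 0.095, Atp2a2 at 0.053, Slc8a1 at 0.027 and Cacna1c at 0.022, and with RNA concentration alone Sln was at -0.74 and Cacna1c at 0.0067. With gene body coverage added Ryr2 was at 0.14, Atp2a2 at 0.064, Slc8a1 at 0.24 and Cacna1c at 0.031. Pln was at -0.076 on library totals without TMM, which moved the median of all genes to -0.09. In limma on TPM, Pln was at -0.14 and Hrc at -0.073 (offset 1, both filters) or -0.074 (offset 0.1), and Sln at -0.19 with an offset of 1, while Camk2d was at -0.38 or -0.40 and the median of all genes was at -0.13 with the TPM filter. Without lane 1 Pln was at -0.056, Sln at -0.49 and Cacna1c at -0.35, and without lane 2 Ryr2 was at 0.070, Atp2a2 at 0.0060, Cacna1c at 0.21 and Hrc at -0.017. Without lane 3 Ryr2 was at 0.085, Sln at -0.44 and Cacna1c at 0.0082, and without lane 4 Sln was at -2.20 and Slc8a1 at 0.17. Without the mice above 10 TPM of Myl7 Pln was at -0.063 and Cacna1c at 0.051. With 1 mouse left out, the log2 fold change was -0.15 to 0.042 for Atp2a2, -0.16 to 0.067 for Cacna1c, -0.068 to 0.10 for Pln, -0.15 to 0.11 for Ryr2, -0.67 to 0.28 for Slc8a1 and -1.12 to 3.80 for Sln. The others kept their sign, at 0.0089 to 0.12 for Hrc, -0.22 to -0.040 for Casq2, -0.19 to -0.047 for Camk2d and -0.22 to -0.044 for Jph2. By exact test on TPM, 1 gene (Sln, 0.159 TPM higher in mutants, p = 0.0303) passed 0.05 without the mice above 10 TPM of Myl7, where Ryr2 differed by 0.364 TPM. After TPM were rescaled to their nominal total Ryr2 differed by 2.36 TPM, and with 1 mouse left out by -5.21 to 4.24 TPM, with Sln at -4.64 to 1.04 TPM. The log2 ratio of Cacna1c to Ryr2 differed by 0.052 in limma with covariates, by 0.038 without the mice above 10 TPM of Myl7 and by -0.20 to 0.050 with 1 mouse left out, Pln to Atp2a2 by -0.022 to 0.069 and Slc8a1 to Atp2a2 by -0.31 to 0.12. Without the mice above 10 TPM of Myl7 the log2 ratios of Sln to Atp2a2 and to Pln differed by 2.85 (p = 0.0198) and 2.81 (p = 0.0163), and Camk2d to Ryr2 by -0.29 (p = 0.0252) without WWP2Mut/Mut mouse 8-2, all unadjusted exact p. Of the 61 other calcium genes 0 were called in any alternative, and at an unadjusted p under 0.05 there were 4 higher and 0 lower with gene body coverage added, 1 higher and 2 lower with no covariates, and 2 higher and 2 lower without lane 1. Over 45 pairs, Sln included, the median r of 0.49 moved to 0.71 on log2(TPM + 1) and to 0.21 with gene body coverage removed. The 22 pairs that passed fell to 10 within WT and to 5 with gene body coverage removed. Within either genotype 9 mice enter, and the median r was 0.48 within WT and 0.63 within WWP2Mut/Mut mice. The causes were not tested. The 7 relations with gene body coverage became 8 on log2(TPM + 1), with Hrc added. Wwp2 lost its call without lane 2 (adjusted p = 0.461), without lane 4 (0.188) and without the mice above 10 TPM of Myl7 (0.205), with log2 fold changes of -1.30, -1.38 and -1.26. No paired analysis was possible because the mouse numbers in the labels are not shared between genotypes.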
